A study of Rattus norvegicus with 24 samples.

Results

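The cytosolic ribosomal protein genes of the lumbar DRG were described across OVX-TPTD, OVX-vehicle and Sham-vehicle rats. They were taken by name, as Rpl or Rps followed by a digit, or Rplp0, Rplp1, Rplp2 or Rpsa, without the S6 kinases. In all, 114 of the 17811 entries of the expression table had such a name, and they came down to 85 of 17236 gene names (51 with a large-subunit and 34 with a small-subunit name). Of these, 83 passed a filter on low counts and were tested, and Rpl3l and Rpl39l did not. The name alone also took in Rps19bp1, which encodes a protein that binds Rps19 and is not part of the ribosome. It left out Fau and Rack1 (listed as Gnb2l1), whose products are part of the ribosome.

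All 24 rats were female Sprague-Dawley rats of 20 weeks, operated on at 12 weeks, and the L4-5 DRG were taken 8 weeks later. OVX-TPTD rats had both ovaries removed and, from 4 weeks after surgery, were given teriparatide (TPTD, the active N-terminal fragment of parathyroid hormone) under the skin in doses of 30 µg/kg, with 3 doses a week over 4 weeks. OVX-vehicle rats had the same surgery with saline on the same days, and Sham-vehicle rats had their ovaries exposed but left in place, also with saline. Each group held 8 rats. The 8 Sham-vehicle rats were chosen from 10 for a heat response near the average, and body weight and this response also guided the selection in the other groups. One rat, OVX-vehicle replicate 1, is titled OVX while its surgery label reads Sham. It was analysed by its title, and the counts and medians of the 2 comparisons that use it are also given without it.

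The libraries held 15573490 to 19069926 counts per rat. The 6 markers of satellite glial cells, the 6 of myelinating Schwann cells and the 10 of sensory neurons were all detected, and the neuron markers summed to 14280 to 17780 FPKM (fragments scaled to transcript length and library depth). Of 5 skeletal muscle and 5 blood cell markers, only 1 each averaged at least 1 FPKM. In whole ganglia, fewer cells of a type and less RNA per cell cannot be told apart.

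A ribosome joins a small subunit, which reads the mRNA, to a large subunit, which forms the peptide bond, and each protein of both subunits is needed in about the same number. The mRNAs of these proteins are short and abundant, and most start with a C followed by a run of pyrimidines, the 5′ terminal oligopyrimidine tract, through which mTORC1 controls their translation. Sensory neurons translate in the cell body and also in long axons, where ribosomal proteins and their mRNAs are found.

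The start sites were examined because this tract is the feature that the mRNAs of the family share. RefSeq promoters of build GRCr8 (300 bases, 250 before and 50 from the annotated start) were matched to 68 of the 85 genes, 65 by gene ID and 3 by symbol. A C at the annotated start followed by at least 4 pyrimidines was found in 24 of the 68 (35.3%), against 2.52% of 21842 protein-coding promoters. The windows below run from 10 bases before the start through the first 20 bases of the transcript, and capitals mark the tract. The first 6 have the tract: Rpl39, Rplp1, Rpl14 and Rps3a were among the members with an unadjusted p under 0.05 for OVX-TPTD against Sham-vehicle rats, and Rpl19 and Rpl10 were among the 5 most abundant. The last 6 have no C at the annotated start followed by such a run. Of these, Rpl24 and Rps24 were also among the members with an unadjusted p under 0.05 in that comparison, and the other 4 were of low abundance or variants. The windows are examples: of all tested members with a matched promoter, 5 of 24 with the tract and 8 of 42 without had such a p (all entries 7.08% higher).
Rpl39 (chrX:121195877-121195906, minus strand): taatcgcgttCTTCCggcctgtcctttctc
Rplp1 (chr8:71290853-71290882, minus strand): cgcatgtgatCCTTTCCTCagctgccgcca
Rpl14 (chr8:129163610-129163639, plus strand): ggccctctccCTTCTCgctgagcgccgcca
Rps3a (chr2:173827023-173827052, minus strand): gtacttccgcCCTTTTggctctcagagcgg
Rpl19 (chr10:83519054-83519083, plus strand): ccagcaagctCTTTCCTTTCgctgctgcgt
Rpl10 (chrX:157205840-157205869, plus strand): gtgggagcgtCTCTTTTCCTCTggcgcggt
Rpl24 (chr11:58128386-58128415, minus strand): tagggaggagattctctaccctataaggtg
Rps24 (chr16:96507-96536, plus strand): ggtcctcttttcctcctttacagctcgggc
Rpl22l1 (chr2:113683186-113683215, plus strand): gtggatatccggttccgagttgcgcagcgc
Rps27l (chr8:76443648-76443677, plus strand): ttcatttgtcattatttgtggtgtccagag
Rps4y2 (chr4:183000903-183000932, plus strand): cagctctcctcactcgcttgtgctctggga
Rps19bp1 (chr7:113693004-113693033, minus strand): tgtgggcggggcttggcagcatgtcggcgg

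Other motifs were searched on both strands of the whole window. CCGGAAG, the core bound by ETS factors such as GABP, was present in 21 of the 68 promoters (30.9%, against 10.7% of all). ANATGGCG, the core of the YY1 motif, was present in 11 (16.2%, against 4.96%), and TATAAA in 8 (11.8%, against 13%). CTTTCC was present in 33 (48.5%, against 26.3%) and can lie within the tract. GGGCGG, the core of the Sp1 motif, was present in 40 (58.8%, against 41.8%). These are matches of letters in an annotated window, and binding was not measured.

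The ribosomal protein mRNAs were among the abundant transcripts of the ganglion. Their levels, summed over the entries of a gene, had a median of 246.5 FPKM over the 85 genes, against 10.1 FPKM for the 12645 entries tested. In 68 genes the mean over the 24 rats was at least 100 FPKM, in 13 it was between 10 and 100, and in 4 it was under 10.

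The highest level was that of Rpl21, a large-subunit protein, with 701.3 ± 69.9 FPKM in OVX-TPTD, 672 ± 82.5 FPKM in OVX-vehicle and 630 ± 47.6 FPKM in Sham-vehicle rats (mean ± SD, n = 8 each). Rps27a, made as a fusion with ubiquitin, followed with a mean of 528 ± 63.3 FPKM over the 24 rats. Rpl19 (517 ± 59.3 FPKM), Rpl13a (515 ± 46.3 FPKM) and Rpl10 (507 ± 42.7 FPKM), which completes the peptidyl transferase centre late in assembly, came next. The means of Rps27a, Rpl19, Rpl13a and Rpl10 lay closer to each other than the SD of any of them, whereas Rpl21 exceeded Rps27a by more than the SD of either. This SD is between rats, and the order of the genes within rats was not tested.

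Most of the lowest members were genes known as variants or tissue-specific copies of others, and Rps19bp1 was not. Rpl3l, the striated muscle paralog of Rpl3, averaged 0.158 FPKM and 0 to 9 counts per rat, against 386.4 FPKM for Rpl3. Rpl39l, known from testis, averaged 0.703 FPKM and 0 to 36 counts, against 95.7 FPKM for Rpl39. Rps19bp1 averaged 3.32 FPKM. Rps4y2 averaged 4.05 FPKM, against 412 FPKM for Rps4x, the X-linked gene of the same small-subunit protein. The human gene of the name Rps4y2 is on the Y chromosome, whereas this entry lies on rat chromosome 4 and spans no intron.

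Other variants were closer to their parent genes. Rps27l, a gene that p53 induces in human cells, averaged 13.3 FPKM, against 113 FPKM for Rps27. Rpl22l1 averaged 63.0 FPKM, against 99.4 FPKM for Rpl22. Rpl36al averaged 75.8 FPKM, above the 42.6 FPKM of Rpl36a. Rpl37a stood at 14.1 FPKM, while the entry named Rpl37a-ps1, on the same span of chromosome 9, stood at 244 FPKM. The gene ID of Rpl37a-ps1 belongs to the protein-coding gene Rpl37a in current RefSeq, so the higher value is that of the entry that current annotation calls Rpl37a.

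**Figure D1:**
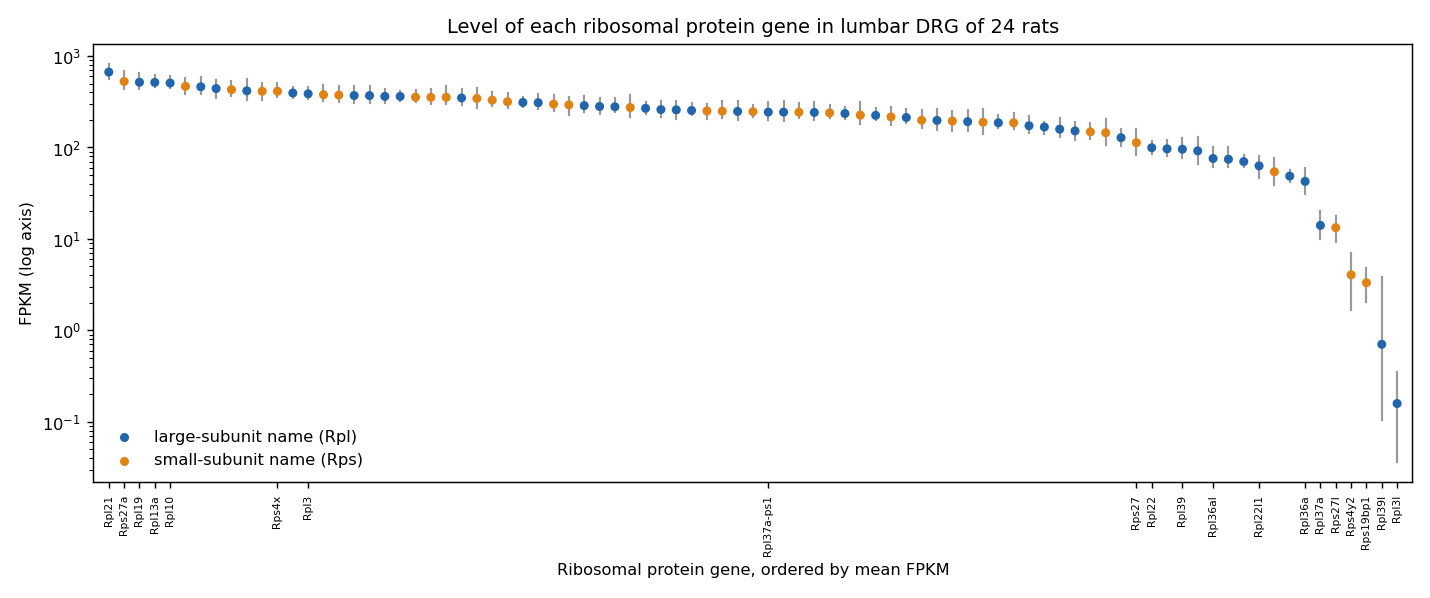
Mean FPKM over 24 rats (points, log axis) of the 85 ribosomal protein genes in order of level, with lines from the lowest to the highest rat; rats at 0 are left out of the lines, and names are given for genes described by level. Levels run from 667.9 FPKM for Rpl21 to 0.158 FPKM for Rpl3l, and 68 genes lie at or above 100 FPKM.

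Reads of ribosomal protein genes can fall on processed copies of the same mRNA, and the table showed this. Of the 85 genes, 19 had more than 1 entry, 48 entries in all, of which 23 spanned no intron. For Rpl35a, which had 5 entries, the one with introns (chromosome 11, 70963262 to 70966460, build rn6) held 13.8% of the counts, and 4 copies without introns held the rest. For Rpl39 the entry with introns (chromosome X, 123705241 to 123708176) held 37.8%. For Rps4x the X-linked entry held 62.5%, and for Rps27a the entry with introns held 61.7%. For Rps6, Rps9, Rps19 and Rplp2, the counts were shared by a pair of entries with introns, and for Rpl8 and Rpl7a by such a pair and copies without introns. Differences between groups were therefore fitted on the entry with the most counts, and values of these 19 genes stay uncertain as to the copy.

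The members varied together from rat to rat. Within the groups, the first principal component held 76.7% of the variance of the 83 tested members (log2 CPM, counts scaled to library size), and the second held 7.68%. Over all 12645 entries the first component held 12.3%. The median SD of a member within groups was 0.15 on the log2 scale, and 0.056 after the rat's median over the members was taken off. Among the members that followed the others most closely were Rpl19 (SD 0.026 after this step), Rpl27a (0.033), Rplp1 (0.037) and Rps7 (0.039).

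The members that followed least were Rps4y2 (SD 0.45), Rps19bp1 (0.27) and Rpl37a (0.16), which are among the lowest in counts. Rps28 (0.15) and Rps27l (0.14) came near them. Rps9 (0.14), a small-subunit protein with a role in decoding, and Rpl17 (0.14), a large-subunit protein at the exit of the peptide tunnel, were the least in step among the abundant members.

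The shared level differed widely between rats of the same group. All members together made up 1.39% to 1.85% of the counts in OVX-TPTD rats (median 1.59%), 1.33% to 1.91% in OVX-vehicle rats (median 1.56%) and 1.35% to 1.66% in Sham-vehicle rats (median 1.45%). The ranges of the 3 groups overlapped. The means were 1.60 ± 0.16% in OVX-TPTD, 1.58 ± 0.18% in OVX-vehicle and 1.48 ± 0.10% in Sham-vehicle rats (SD, n = 8 each). The rat with the highest share had 1.43 times that of the lowest, and both were OVX-vehicle rats (replicates 1 and 6).

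Expressed as the median deviation of the 83 members from their mean over the 24 rats (log2 CPM), the level ran from -0.14 to 0.26 in OVX-TPTD rats (median 0.046). It ran from -0.24 to 0.34 in OVX-vehicle rats (median 0.0029) and from -0.18 to 0.090 in Sham-vehicle rats (median -0.095). The level was above 0 in 5 of 8 OVX-TPTD, 4 of 8 OVX-vehicle and 1 of 8 Sham-vehicle rats. In OVX-TPTD replicate 5 all 83 members were above their mean, and in OVX-vehicle replicate 1, the highest rat, 82 were. In OVX-vehicle replicate 6, the lowest rat, 1 member was. By the number in the labels, 7 of the 12 rats numbered 1 to 4 and 3 of the 12 numbered 5 to 8 were above 0, and the labels do not say what the numbers stand for.

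**Figure D2:**
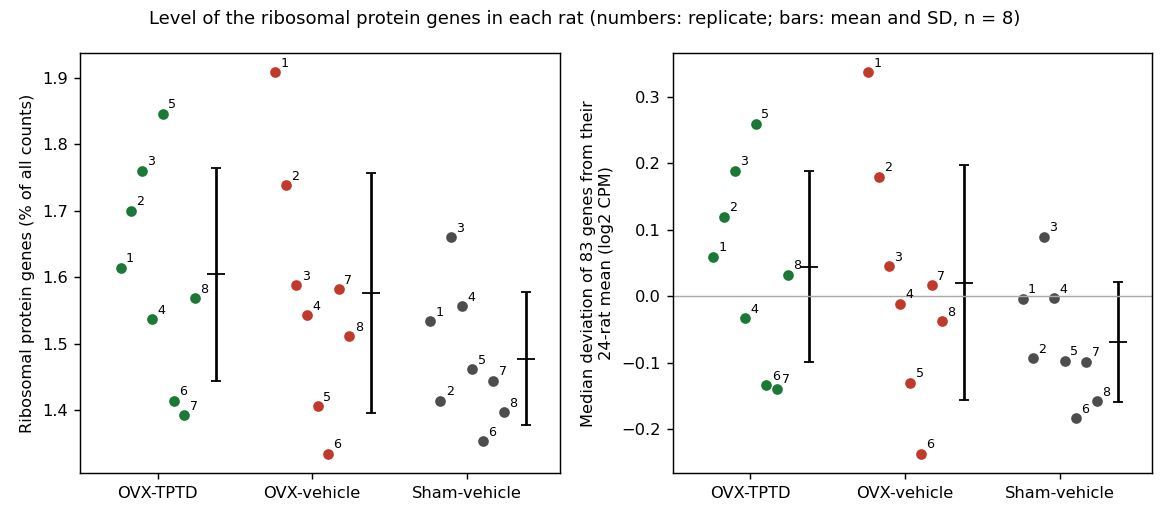
Left, share of all counts in ribosomal protein genes (%); right, median deviation of 83 members from their 24-rat mean (log2 CPM), with 1 point for each rat, its replicate number, and the mean ± SD of each group (n = 8) as bars. The groups overlap, from 1.39% to 1.85% in OVX-TPTD, 1.33% to 1.91% in OVX-vehicle and 1.35% to 1.66% in Sham-vehicle rats.

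The first comparison asked what TPTD changed in ovariectomized rats. The ribosomal protein genes were at nearly the same level in OVX-TPTD and OVX-vehicle rats. The log2 difference was positive in 54 of the 83 members (65.1%, against 49% of all entries), with a median of 0.015 (all entries -0.0020) and a range from -0.20 to 0.20. With edgeR's quasi-likelihood test and Benjamini-Hochberg adjustment over 12645 entries, 0 of the 83 members passed at 0.05 (background 0%). At an unadjusted p under 0.05 the count was also 0 (background 1.95% higher and 1.7% lower, 3.65% in either direction). DESeq2 gave 0 members with adjustment (1 of all entries) and 0 without it (all entries 1.88% higher). An exact permutation test of log2(FPKM) gave 0 at p under 0.05 (background 3.81% in either direction) and 0 that also exceeded the fold threshold of the study, 0.25 on the log2 scale (background 1.5%). The ranges of the 2 groups overlapped in all 83 members. Overlap was not counted over all entries, so this does not set the members apart.

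The smallest p was that of Rpl17, with 239.8 to 325.3 FPKM in OVX-TPTD rats (median 273.5) and 211.0 to 312.7 FPKM in OVX-vehicle rats (median 253.8). Of the OVX-TPTD rats, 6 of 8 were above the OVX-vehicle median, and the ranges overlapped. Its log2 difference was 0.10 ± 0.074 (SE; 95% interval -0.050 to 0.26), with an adjusted p of 0.995 by edgeR's quasi-likelihood test. Rpl39, which lines the exit tunnel of the nascent peptide, had a log2 difference of 0.10 ± 0.085 in its main entry and 0.048 ± 0.097 with its entries summed. Rpl26, near the mouth of that tunnel, had one of 0.092 ± 0.079. The main entry of Rps9 was at 126.2 to 190.4 FPKM in OVX-TPTD (median 152.5) and 125.2 to 189.1 FPKM in OVX-vehicle rats (median 165.8). It was one of 29 members with a negative value (-0.095 ± 0.081, or -0.090 ± 0.084 with its 2 entries summed), and 2 of 8 OVX-TPTD rats were above the OVX-vehicle median. Rps19bp1 (-0.20 ± 0.15) and Rps4y2 (0.20 ± 0.18) had the largest values in size and the largest errors.

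Over the 83 members the SE was 0.049 to 0.18 (median 0.071), larger than the median difference. That median also rested on single rats. It was 0.062, with 77 of 83 members positive, without OVX-vehicle replicate 1, and -0.018 without OVX-vehicle replicate 6. Without OVX-vehicle replicate 1 the log2 difference was 0.13 ± 0.076 for Rpl17, 0.15 ± 0.074 for Rpl26 and -0.071 ± 0.084 for Rps9, and for Rps4y2 0.076 ± 0.15.

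The second comparison asked what ovariectomy changed. Nearly all ribosomal protein genes had a higher mean in OVX-vehicle than in Sham-vehicle rats, by a small amount. The log2 difference was positive in 82 of the 83 members (98.8%, against 50.9% of all entries), and Rps27l was the exception. The median was 0.091 (all entries 0.0019) and the range -0.036 to 0.23. In edgeR's quasi-likelihood test, 3 members were higher at an unadjusted p under 0.05 (3.61%, against a background of 2.36% of entries higher), 0 were lower (background 2.46%, or 4.82% in either direction), and 0 passed the adjustment (background 0.00791%, smallest adjusted p = 0.864). Among the 5264 other entries in the members' range of transcript width (305 to 1933 bases), 3.61% were higher at that unadjusted p, the same share as among members. DESeq2 gave 3 members without adjustment (all entries 1.88% higher) and 0 with it (7 of all entries in either direction). The exact permutation test gave 3 at p under 0.05, all of them higher (background 5.12% in either direction), and 0 past the fold threshold as well (background 1.52%). Since the members moved as a block, their number of like signs is not a number of independent observations. The median was smaller than the SD of 0.14 between rats of a group in the shared level. That SD is the spread of single rats, not the error of a difference between groups. The median SE of a member's difference was 0.071.

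Rpl15, a large-subunit protein whose gene is mutated in some Diamond-Blackfan anaemias in humans, was at 61.7 to 83.7 FPKM in OVX-vehicle rats (median 73.4) and 61.1 to 71.3 FPKM in Sham-vehicle rats (median 63.7). The ranges overlapped, with 7 of 8 OVX-vehicle rats above the Sham-vehicle median. The log2 difference was 0.14 ± 0.055 (95% interval 0.027 to 0.26), with an adjusted p of 0.864 by edgeR's quasi-likelihood test. Rps10, a protein of the small-subunit head, was at 177.4 to 244.2 FPKM in OVX-vehicle (median 204.7) and 174.8 to 222.8 FPKM in Sham-vehicle rats (median 183.9) in its main entry on chromosome 20. Its log2 difference was 0.14 ± 0.063, and the ranges overlapped. With its 2 entries summed the difference was 0.086 ± 0.063 and Rps10 was no longer among the 3 (adjusted p = 0.864, edgeR). Rpl22, which also binds viral RNAs in human cells, was at 88.9 to 117.2 FPKM in OVX-vehicle (median 100.4) and 86.4 to 108.7 FPKM in Sham-vehicle rats (median 92.9), with a log2 difference of 0.14 ± 0.065.

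Rpl24 (0.13 ± 0.065), which takes part in a bridge between the subunits, Rps24 (0.12 ± 0.066) and Rpl36 (0.12 ± 0.065) were among the next in order of p. Rpl37a (0.23 ± 0.12, the entry at 14.1 FPKM) and Rps21 (0.19 ± 0.10) had the largest values, with larger errors. The mean log2(FPKM) difference was 0.14 for Rpl37a-ps1, the abundant entry that current annotation calls Rpl37a. None of these passed at an unadjusted p of 0.05.

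This comparison rested in large part on the rat whose labels conflict. Without OVX-vehicle replicate 1, the median was 0.041, with 81 of 83 members positive and 0 at an unadjusted p under 0.05 (all entries 1.52% higher). The log2 difference was then 0.11 ± 0.053 for Rpl15, 0.11 ± 0.062 for Rps10 and 0.11 ± 0.066 for Rpl22. It was 0.076 ± 0.059 for Rpl24, 0.072 ± 0.062 for Rps24 and 0.076 ± 0.060 for Rpl36, and 0.16 ± 0.12 for Rpl37a and 0.12 ± 0.093 for Rps21. When that rat was counted as Sham-vehicle, the median was -0.0064, with 33 of 83 positive and 0 at that p (all entries 1.14% higher). Without OVX-vehicle replicate 6 the median was 0.13 and 16 members had an unadjusted p under 0.05. Leaving out OVX-vehicle replicate 5 gave 7 such members, Sham-vehicle replicate 3 gave 8, and OVX-vehicle replicates 2 or 3 or Sham-vehicle replicates 2, 5, 6 or 8 gave 1. Apart from OVX-vehicle replicate 1, the share over all entries is not given for these fits, so the swings are not a result about the members.

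The third comparison set the ovariectomized rats on TPTD against the sham-operated rats, which differ in surgery and in drug. It shares the OVX-TPTD rats with the first comparison and the Sham-vehicle rats with the second, so its values are not independent of theirs. The ribosomal protein genes had a higher mean in OVX-TPTD than in Sham-vehicle rats in 80 of 83 members (96.4%, against 50.7% of all entries). The median was 0.12 (all entries 0.0019), from -0.13 for Rps19bp1 to 0.33 for Rps4y2. Rps27l (-0.040 ± 0.11) and Rps9 (-0.011 ± 0.081) were the other negative members.

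At an unadjusted p under 0.05, edgeR's quasi-likelihood test gave 14 members higher (16.9%, against a background of 7.08%) and 0 lower (background 8%, or 15.1% in either direction), and 0 passed the adjustment (background 0.0316%, smallest adjusted p = 0.26). Among the 5264 other entries in the members' range of transcript width, 9.78% were higher at that unadjusted p. DESeq2 gave 15 members without adjustment (all entries 5.85% higher) and 0 with it (36 of all entries in either direction). The exact permutation test over all 12870 divisions of the 16 rats gave 17 members at p under 0.05, all of them higher (background 13.9% in either direction). Rpl39 and Rps4y2 were the 2 of them whose difference also exceeded 0.25 on the log2 scale (2.74% of 13024 entries passed both, in either direction). The ranges of the 2 groups overlapped in all 83 members, and overlap over all entries was again not counted.

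Rpl39 had the smallest p. Its main entry was at 29.6 to 46.1 FPKM in OVX-TPTD rats (median 40.8) and 29.1 to 38.02 FPKM in Sham-vehicle rats (median 32.0), and 7 of 8 OVX-TPTD rats were above the Sham-vehicle median. The log2 difference was 0.25 ± 0.085 (95% interval 0.070 to 0.43), with an adjusted p of 0.26 by edgeR's quasi-likelihood test. This value depended on the entry, which held 37.8% of the counts of Rpl39. With its 3 entries summed the log2 difference was 0.17 ± 0.098 (adjusted p = 0.389, edgeR), and Rpl39 was no longer under an unadjusted p of 0.05, which left 13 members. In its main entry, it was the 1 member that kept an unadjusted p under 0.05 when each rat was scaled to the median of its ribosomal protein genes (adjusted p = 0.424, edgeR).

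Rps24, a small-subunit protein, was at 395.4 to 537.8 FPKM in OVX-TPTD rats (median 446.3) and 363.1 to 464.7 FPKM in Sham-vehicle rats (median 399.4). The log2 difference was 0.17 ± 0.066, with 6 of 8 OVX-TPTD rats above the Sham-vehicle median. Rpl14, of the large subunit, was at 341.4 to 410.6 FPKM in OVX-TPTD (median 378.7) and 314.6 to 394.7 FPKM in Sham-vehicle rats (median 337.3). All 8 OVX-TPTD rats were above the Sham-vehicle median, the ranges overlapped, and the log2 difference was 0.14 ± 0.057. Rpl24 was at 261.2 to 327.0 FPKM in OVX-TPTD (median 298.1) and 243.5 to 294.0 FPKM in Sham-vehicle rats (median 264.2), with a log2 difference of 0.16 ± 0.065. Rpl15 had a log2 difference of 0.14 ± 0.055, Rps4x 0.16 ± 0.070, Rpl26 0.18 ± 0.080 and Rpl21 0.14 ± 0.067. Rpl17, Rpl36, Rps3a and Rps15a were also among the 14, beside Rpl5 and Rplp1, described below by role.

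The count of 14 was sensitive to single rats. It was 3 without OVX-TPTD replicate 5, 5 without OVX-TPTD replicate 3, and 9 without OVX-TPTD replicate 2. It was 26 without OVX-TPTD replicate 6 and 33 without OVX-TPTD replicate 7. Of the Sham-vehicle rats, leaving out replicate 3 gave 25, replicate 2 gave 7, replicate 5 gave 9, and replicates 6 or 8 gave 4. OVX-vehicle replicate 1 is in neither group compared but in the same fit, and without it the count was 22 (all entries 7.24% higher). The share over all entries is not given for the other fits with 1 rat left out, so these swings are not a result about the members. The median stayed between 0.085 and 0.14 with any 1 rat of the 2 groups compared left out, and was 0.115 without OVX-vehicle replicate 1.

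**Figure D3:**
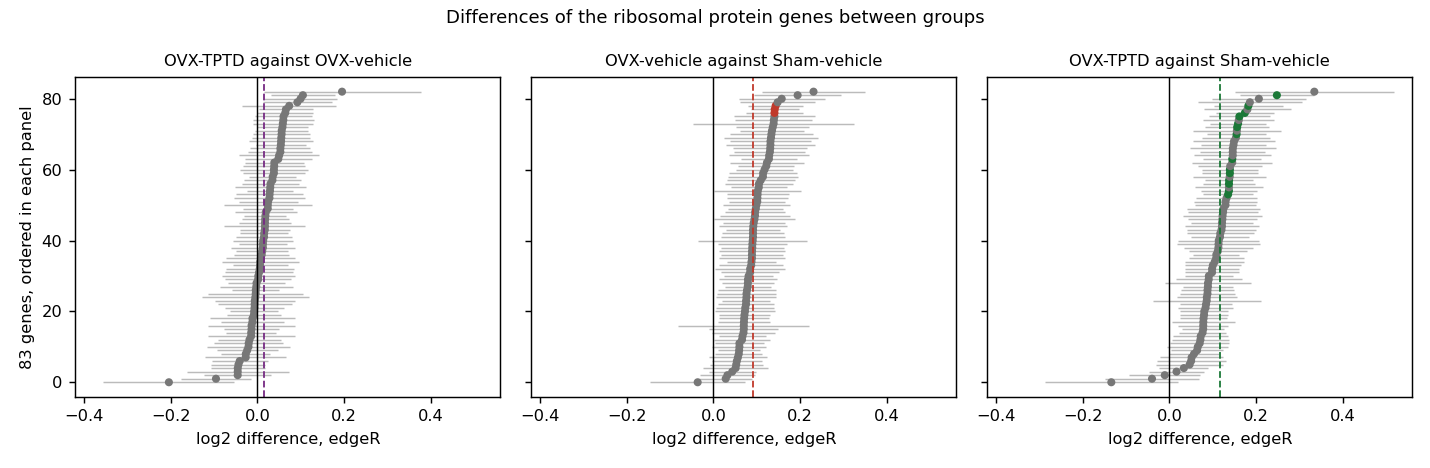
Log2 difference of the 83 tested ribosomal protein genes (points, ordered in each panel; lines are ± 1 SE; coloured points have an unadjusted p under 0.05, edgeR) in the 3 comparisons, with the median dashed. The medians are 0.015, 0.091 and 0.12, with 0, 3 and 14 coloured points.

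By role, the P stalk, which recruits the GTPases of translation, consists of Rplp0, Rplp1 and Rplp2. Rplp1 was at 331.1 to 450.5 FPKM in OVX-TPTD (median 393.2), 303.9 to 467.1 FPKM in OVX-vehicle (median 367.1) and 324.6 to 387.0 FPKM in Sham-vehicle rats (median 339.0). Its log2 difference was 0.15 ± 0.069 for OVX-TPTD against Sham-vehicle rats, one of the 14 above, beside 0.076 ± 0.054 for Rplp0 and 0.016 ± 0.062 for Rplp2. Rpl5 and Rpl11, which bind the 5S RNA and, when free, can bind Mdm2, had log2 differences of 0.14 ± 0.060 and 0.13 ± 0.071 in the same comparison. Rps6, the substrate of the S6 kinases, had 0.10 ± 0.068, Rpsa, also known as a laminin receptor, 0.078 ± 0.058, and Rps27a 0.14 ± 0.078.

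The medians of the subunits were close to each other. Subunits were assigned by name, so the small-subunit members include Rps19bp1, which is not part of the ribosome. For OVX-TPTD against Sham-vehicle rats, the median was 0.12 over 49 large-subunit members (49 positive) and 0.11 over 34 small-subunit members (31 positive, with Rps19bp1 among the negative ones). For OVX-vehicle against Sham-vehicle rats it was 0.090 (49 positive) and 0.095 (33 positive), and without OVX-vehicle replicate 1 0.041 (48 positive) and 0.044 (33 positive). For OVX-TPTD against OVX-vehicle rats it was 0.017 (37 positive) and 0.0017 (17 positive), and without that rat 0.065 (46 positive) and 0.061 (31 positive).

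The medians of members with and without the tract at the annotated start were set side by side. An annotated start need not be the start used in DRG, so the members without may include mRNAs that carry the tract. For OVX-TPTD against Sham-vehicle rats the median was 0.11 in 24 with the tract and 0.11 in 42 without. For OVX-vehicle against Sham-vehicle rats it was 0.089 in both, and for OVX-TPTD against OVX-vehicle rats 0.0050 with and 0.017 without the tract. Leaving out OVX-vehicle replicate 1 gave 0.040 with and 0.041 without the tract for OVX-vehicle against Sham-vehicle, and 0.058 with and 0.063 without it for OVX-TPTD against OVX-vehicle rats.

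Scaled to the level of the whole family, the members no longer differed in one direction. With each rat scaled to the median of its ribosomal protein genes, the numbers of positive members were 33 for OVX-TPTD against OVX-vehicle, 40 for OVX-vehicle against Sham-vehicle and 42 for OVX-TPTD against Sham-vehicle rats. At an unadjusted p under 0.05, the numbers of members were 0, 0 and 1 by edgeR's quasi-likelihood test. This scaling was chosen after seeing the data, and by its construction it removes what the members share.

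Transcript width moved with these differences. The tested members were 305 to 1933 bases wide (median 564), against a median of 2160 for all entries tested. Among the other genes, the log2 difference was lower in long than in short transcripts in each comparison. For OVX-TPTD against Sham-vehicle rats, its median was 0.069 among the shortest of 10 equal bins of width (111 to 1042 bases) and -0.063 among the longest (4726 to 23521 bases). For OVX-vehicle against Sham-vehicle rats it was 0.052 and -0.038, and for OVX-TPTD against OVX-vehicle rats 0.0094 and -0.024. Without OVX-vehicle replicate 1 these were 0.025 and -0.027, and 0.035 and -0.033.

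Beside other genes in the same class of width, the gap between members and others differed between classes. Widths were not matched within a class. Of the 83 members, 75 were at most 1042 bases wide. Of the others above 700 bases, 1255, 1253 and 1256 lay in the bins of 1043 to 1355, 1356 to 1601 and 1602 to 1873 bases. The gap above 700 bases is therefore not one at equal width. Between 305 and 500 bases, 28 members had a median of 0.105 and 120 other entries one of 0.091 for OVX-vehicle against Sham-vehicle rats. For OVX-TPTD against Sham-vehicle rats the medians were 0.13 and 0.092. Of these short transcripts, 28 of 28 members were positive in each of these 2 comparisons, against 78.3% and 75.8% of the others. Above 500 and up to 700 bases, 25 members had medians of 0.091 and 0.11 (24 and 23 positive), and 295 other entries 0.058 and 0.077 (75.9% and 79.0% positive), for OVX-vehicle and OVX-TPTD against Sham-vehicle rats. Above 700 bases, 30 members had a median of 0.0795 and 4849 other entries one of 0.024 for OVX-vehicle against Sham-vehicle rats, and the medians were 0.10 and 0.036 for OVX-TPTD against Sham-vehicle rats. There, 30 of 30 members and 62.1% of the others were positive for OVX-vehicle against Sham-vehicle rats, and 29 of 30 members and 62.7% of the others for OVX-TPTD against Sham-vehicle rats. Without OVX-vehicle replicate 1, the medians for OVX-vehicle against Sham-vehicle rats, from the shortest to the longest class, were 0.052, 0.038 and 0.040 for members and 0.045, 0.024 and 0.015 for the others.

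After a smooth trend in width, fitted on the other genes, was removed from each rat, the median was 0.0055 for OVX-TPTD against OVX-vehicle rats (48 of 83 members positive). It was 0.028 for OVX-vehicle against Sham-vehicle rats (66 positive) and 0.036 for OVX-TPTD against Sham-vehicle rats (68 positive). At an unadjusted p under 0.05 by edgeR's quasi-likelihood test there were 0, 2 and 8 members, all of them higher, and 0 passed the adjustment. The shares of all entries higher at that p were 2.34%, 2.01% and 7.19%. With OVX-vehicle replicate 1 also left out, which was tried after seeing the data, the medians were 0.026 (67 positive), 0.011 (52 positive) and 0.036 (68 positive), with 3, 1 and 9 members at that p. The shares of all entries higher at that p were then 3.35%, 1.52% and 7.6%. With all rats, the 8 were Rpl39, Rpl24, Rpl15, Rps4x, Rps24, Rpl14, Rpl5 and Rpl26, and the 2 were Rpl15 and Rps10.

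**Figure D4:**
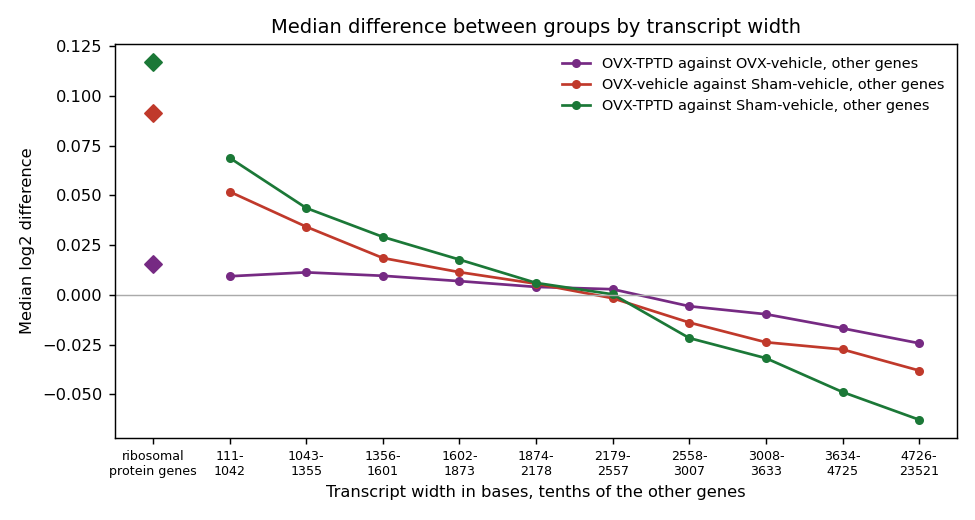
Median log2 difference (y axis) of the other genes in 10 bins of transcript width (x axis, bases), with the 83 ribosomal protein genes as diamonds at the left, for the 3 comparisons. The longest bin is lower than the shortest in each comparison, at -0.063 for OVX-TPTD against Sham-vehicle rats, and the diamonds stand at 0.12, 0.091 and 0.015.

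The same relation was seen from rat to rat. The slope of the other genes on width ran from -0.093 to 0.063 (log2 CPM for each doubling of width) over the 24 rats. Of the 8 rats with the highest level of ribosomal protein genes, 7 were among the 8 with the most negative slope, and of the 8 with the lowest level, 6 were among the 8 with the most positive slope. The slope averaged -0.018 ± 0.045 in OVX-TPTD, -0.0045 ± 0.038 in OVX-vehicle and 0.022 ± 0.033 in Sham-vehicle rats (SD, n = 8 each). Total counts did not line up in this way: 1 of the 8 rats with the highest level was among the 8 deepest libraries.

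**Figure D5:**
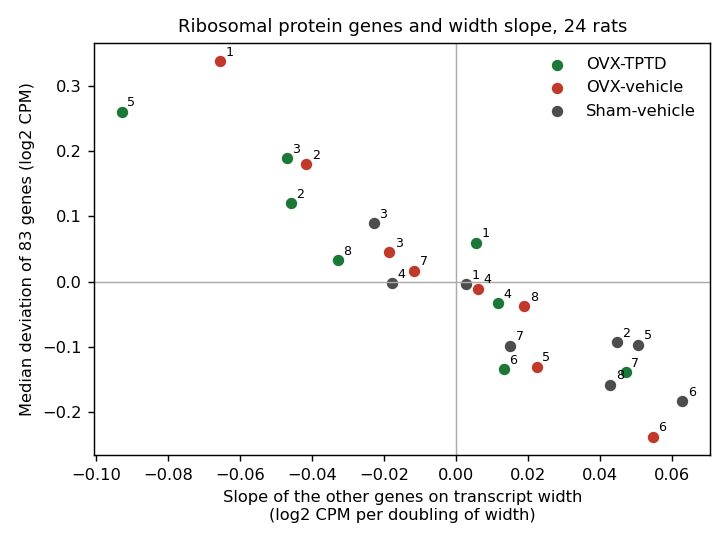
Median deviation of the 83 ribosomal protein genes (y axis, log2 CPM) against the slope of the other genes on transcript width (x axis, log2 CPM for each doubling of width) in each of 24 rats, with replicate numbers. Of the 8 rats with the highest level, 7 are among the 8 with the most negative slope, and OVX-TPTD replicate 5 and OVX-vehicle replicate 1 are at the upper left.

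Some cell type markers lined up with the level and others did not. Of the 8 rats with the highest level of ribosomal protein genes, 6 were among the 8 with the lowest sensory neuron markers, and of the 8 with the lowest level, 6 were among the 8 with the highest. For satellite glial cells, 4 of the 8 highest were among the 8 with the highest markers, for macrophages 4, Schwann cells 5, fibroblasts 5, endothelial cells 3 and skeletal muscle 2. Of the 8 lowest, those among the 8 with the lowest markers were 4 for satellite glial cells, 4 for macrophages, 3 for Schwann cells and 2 each for fibroblasts, endothelial cells and skeletal muscle. For blood cells, of which 2 of 5 markers were tested, 6 of the 8 highest were, and 7 of the 8 lowest were among the 8 with the lowest markers. The neuron markers summed to 14300 to 16760 FPKM in OVX-TPTD rats (median 15710), 14280 to 17780 FPKM in OVX-vehicle rats (median 15970) and 14950 to 17030 FPKM in Sham-vehicle rats (median 16010). The satellite glial markers summed to 2208 to 2864 FPKM in OVX-TPTD (median 2338), 2175 to 2631 FPKM in OVX-vehicle (median 2372) and 2054 to 2514 FPKM in Sham-vehicle rats (median 2188). The part of transcript width and of these cells in the differences of the ribosomal protein genes was not tested beyond the values given.

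Other genes of protein synthesis were read beside the members. For OVX-TPTD against Sham-vehicle rats, Fau, outside the name rule, had a log2 difference of 0.059 ± 0.080 and Rack1 one of 0.067 ± 0.055. Of 11 other genes whose mRNAs carry the tract, 10 were positive (median 0.087), among them Naca (0.18 ± 0.058). The initiation factors had 26 of 32 positive (median 0.066), 9 higher and 4 lower at an unadjusted p under 0.05 (all entries 7.08% higher and 8% lower). Eif3e (0.15 ± 0.057) was among the 9, and Eif3b (-0.11 ± 0.042) among the 4. The elongation factors had 6 of 10 positive (median 0.021), and Eef1a2 (-0.18 ± 0.070) was the 1 of 10 lower at that p (all entries 8%).

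Ribosome biogenesis factors, which make and process the rRNA, had 22 of 37 positive (median 0.022), with 2 higher, Pes1 (0.083 ± 0.032) and Wdr12 (0.12 ± 0.049), and 1 lower, Bop1 (-0.14 ± 0.062), at an unadjusted p under 0.05. These shares are below the 7.08% higher and 8% lower of all entries, and Bop1 was named after its values were seen. Genes of mTORC1 and S6 kinase signalling had 8 of 19 positive (median -0.020), with Rptor (-0.18 ± 0.064), Mtor (-0.18 ± 0.069) and Mlst8 (-0.14 ± 0.061) lower at that p. None of these genes passed the adjustment in edgeR's quasi-likelihood test.

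The most like sets were others of short transcripts. Mitochondrial ribosomal proteins (median width 1029.5 bases) had 60 of 72 positive for OVX-TPTD against Sham-vehicle rats (median 0.072), 60 of 72 for OVX-vehicle against Sham-vehicle rats (median 0.051) and 42 of 72 for OVX-TPTD against OVX-vehicle rats (median 0.011). Nuclear genes of the respiratory chain (median width 695 bases) had 65, 68 and 39 of 77 positive (medians 0.081, 0.076 and 0.00019) in the same comparisons. Proteasome subunits (median width 1302.5 bases) had 38, 36 and 30 of 40 positive (medians 0.092, 0.056 and 0.019). For OVX-TPTD against Sham-vehicle rats, the numbers higher at an unadjusted p under 0.05 (edgeR) were 7 of 72, 4 of 77 and 9 of 40 in these sets. Lower at that p were 1, 0 and 1 (all entries 7.08% higher and 8% lower). Of the 8 rats with the highest level of ribosomal protein genes, 5 were among the 8 highest for mitochondrial ribosomal proteins, 6 for the respiratory chain and 4 for the proteasome. Without OVX-vehicle replicate 1, the medians for OVX-vehicle against Sham-vehicle rats were 0.026 for mitochondrial ribosomal proteins, 0.038 for the respiratory chain and 0.023 for the proteasome, and for OVX-TPTD against OVX-vehicle rats 0.030, 0.035 and 0.045. Whether the members differed from these sets was not tested.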

How the data were processed

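Lumbar DRG of 24 rats, 8 in each group, were sequenced as stranded mRNA libraries, 1 for each rat. The authors aligned the reads to rn6 with TopHat2 2.0.14, as the submitters' notes also state. For each entry and rat the authors deposited an expected count, which need not be whole (86.4% of values were, within 0.001), and an FPKM value scaled to length and depth. Whether counting used strand, and how reads matching several copies were shared, is not given in the sources used here.

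Counts were rounded, filtered with filterByExpr and fitted in edgeR 4.0.16 (R 4.3.3; TMM factors 0.969 to 1.015, quasi-likelihood test, all groups in 1 fit), with Benjamini-Hochberg adjustment over 12645 entries. For genes with several entries, the one with the most counts was used for differences, and FPKM were summed over entries for levels. Rat levels used log2 CPM with a prior count of 2. The width trend was a lowess curve (span 0.3) of non-members. The named genes came from the 10 members with the smallest p in each comparison, the 5 highest and 5 lowest in FPKM, paralogs, the P stalk, the 5S partners, Rps6, Rpsa, Rps27a, genes with several entries or an outlying rat, and up to 3 genes with the smallest p of each other list. The members and lists were chosen with earlier results of these data known. A few genes are not reported here. Procedures were tested on simulated data. No 2 rats of a group differed by less than sampling noise (chi-square per gene 5.55 to 39.4). Alternatives were DESeq2 1.42.0, limma 3.58.1 on log2 FPKM with a pseudocount of 0.1 or 1, no filter, no TMM factors, summed entries, blocks, fits of 2 groups and leaving out each rat.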

Additional observations from a re-analysis of the deposited data

Results flagged for a closer look

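In 8 of the 156 groups of 8 rats examined for the members named (and the family's level), 1 rat lay apart from the other 7 by more than Dixon's 95% limit for the gap relative to the range, where chance gives about 1 in 20. In Sham-vehicle replicate 3, Rplp0 (442.7 FPKM, others 350.5 to 387.7), Rpl22 (108.7 FPKM, others 86.4 to 95.1), Rps13 (205.8 FPKM, others 159.4 to 177.9) and Rps19 (260.6 FPKM, others 185.6 to 217.1) were the highest of their group. This rat also had the highest level of the whole family in its group. Rps4y2 was at 7.098 FPKM in OVX-TPTD replicate 5 (others 3.25 to 4.90), the rat in which all 83 members were above their mean. Rps19bp1 was at 4.818 FPKM in Sham-vehicle replicate 4 (others 2.70 to 3.54). Rpl39l, with few counts, was at 3.827 FPKM in OVX-vehicle replicate 5 (others 0.106 to 0.973) and at 3.557 FPKM in Sham-vehicle replicate 6 (others 0.114 to 1.71).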

How the results depend on the processing

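The number of members past the adjusted threshold was 0 in all 3 comparisons under all alternatives run. The 30 log2 differences of members named by p kept their direction in all 900 recomputed values, which leave out the scaling to the family. These members were picked by p in the same data, so their kept signs say little about the family. With OVX-vehicle replicate 1 counted as Sham-vehicle, 33 of 83 members were positive for OVX-vehicle against Sham-vehicle rats, against 82 in the main fit. Counts at an unadjusted p under 0.05 moved. For OVX-vehicle against Sham-vehicle rats (3), they were 5 with the replicate block (all entries 2.56% higher) and with numbers 1 to 4 against 5 to 8 as a covariate (2.53%). They were 0 with OVX-vehicle replicate 1 counted as Sham-vehicle, scaled to the ribosomal protein genes (added after seeing the data), or at both thresholds of the exact permutation test, and 0 to 16 with 1 rat left out. For OVX-TPTD against Sham-vehicle rats (14), they were 23 with only the 2 groups in the fit, 25 with the replicate block (all entries 7.32% higher) and 24 with the covariate (7.79%). They were 8 with the width trend removed, with or without the replicate block, 2 with replicate 1 counted as Sham-vehicle or at both permutation thresholds, 1 after scaling to the family, and 3 to 33 with 1 rat left out. For OVX-TPTD against OVX-vehicle rats (0) they were 0 to 1 with 1 rat left out. With the width trend removed and OVX-vehicle replicate 1 left out (added after seeing the data), they were 3 for OVX-TPTD against OVX-vehicle, 1 for OVX-vehicle against Sham-vehicle and 9 for OVX-TPTD against Sham-vehicle rats. For the fit of 2 groups and most fits with 1 rat left out, the share of all entries at that p is not given. Medians with 1 rat of the groups compared left out ran from -0.018 to 0.062 (OVX-TPTD against OVX-vehicle), 0.041 to 0.13 (OVX-vehicle against Sham-vehicle) and 0.085 to 0.14 (OVX-TPTD against Sham-vehicle). Counting replicate 1 as Sham-vehicle gave medians of 0.066, -0.0064 and 0.061. Scaling to the family moved the median of all entries to -0.10 for OVX-TPTD against Sham-vehicle rats. The cause of these changes was not tested.

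The numbers in the labels do not pair the rats: correlations of same-numbered rats' deviations were -0.092 to 0.11 over 24 pairs, 1 of them above 0.1, and 3 rats correlated best with their own number. At this depth, Rpl3l (0 to 9 counts per rat) and Rpl39l (0 to 36) cannot be compared between groups.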
